A study of Mus musculus with 23 samples.

Results

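Cells of the early embryo sit on basement membranes, and the 36 genes described here encode their main structural proteins and the receptors that hold cells to them: 11 integrin alpha subunits, 7 integrin beta subunits, 9 laminin chains, 4 type IV collagen chains, the linkers Nid1, Nid2 and Hspg2, the receptor gene Dag1 and the collagen-binding glycoprotein gene Sparc. The genes were taken by name as a list, and all 36 were found among the 23725 lines of the deposited count table. RNA was measured in E6.25 mouse embryos, in the extra-embryonic tissue (ExE) and in the epiblast (E), the tissue that forms the embryo proper. Embryos were homozygous (Tet1gt/gt) or heterozygous (Tet1gt/wt) for a gene-trap allele of Tet1, a dioxygenase that oxidises methylated cytosine in DNA, or were wild type (wt). Every library is a pool of lysates of 6 or more embryos drawn from 2 to 3 litters and sorted by a genotype read afterwards, so a value averages several embryos. There were 3 pools of Tet1gt/gt ExE (a further pool was lost, per the labels), and 4 pools each of Tet1gt/wt ExE, wt ExE, Tet1gt/gt E, Tet1gt/wt E and wt E. Values are listed by pool number, which is 1, 3 and 4 in Tet1gt/gt ExE, 1, 2, 3 and 5 in Tet1gt/wt ExE, 1, 2, 4 and 5 in wt ExE, 1 to 4 in Tet1gt/gt E, 2 to 5 in Tet1gt/wt E and 1, 2, 4 and 5 in wt E.

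A basement membrane is a sheet of 2 networks, laminin heterotrimers made of an alpha, a beta and a gamma chain, and type IV collagen trimers, which nidogens and the proteoglycan perlecan (Hspg2) tie together. Integrins, heterodimers of an alpha and a beta subunit, and dystroglycan (Dag1) anchor cells to it. In the mouse egg cylinder such a membrane underlies the visceral endoderm and separates it from the epiblast and the extra-embryonic ectoderm, and embryos without laminin heterotrimers or without beta-1 integrins die around implantation.

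Total counts were 4912215 to 9494814 per library, and where no read was counted the level may still reach 0.316 to 0.611 CPM before TMM scaling (3 counts, for counting error only). Levels below are CPM after TMM scaling. Tet1 had 21.5, 24.2 and 37.8 CPM in Tet1gt/gt, 45.7, 50.2, 39.3 and 57.1 CPM in Tet1gt/wt and 109.9, 98.2, 98.8 and 77.1 CPM in wt ExE. In E it had 69.2, 87.4, 55.3 and 113 CPM in Tet1gt/gt, 147, 146, 66.7 and 137 CPM in Tet1gt/wt and 127, 177, 190.4 and 197 CPM in wt. Every Tet1gt/gt pool was below every wt pool of its tissue, in the direction of the labels. The labelled tissues also differed in their markers. In all, 9 extra-embryonic ectoderm markers summed to 1505 to 2401 CPM in ExE and 128 to 492 CPM in E. A further 10 epiblast markers summed to 2242 to 5286 CPM in ExE and 8221 to 11579 CPM in E, with no marker of either list at 0 throughout a tissue. Ectoplacental cone and giant cell markers summed to 205 to 852 CPM in ExE and 4.59 to 185 CPM in E, with Tpbpa, Prl2c2 and Ctsq at 0 throughout ExE. Parietal endoderm markers summed to 136 to 388 CPM in ExE and 11.4 to 115 CPM in E. Their mean log2 CPM overlapped, at 0.82 to 1.88 in ExE and 0.04 to 2.49 in E. The 26 visceral endoderm markers ranged widely in both tissues, 21.04 to 469.8 CPM in ExE and 20.2 to 1236 CPM in E, with wt pool 1 highest in each. Fga alone was at 0 throughout ExE, and none of the 25 markers tested passed between wt tissues. Maternal decidua markers were highest in Tet1gt/gt ExE pool 3, at a mean log2 CPM of 2.69. In 3 libraries (Tet1gt/gt ExE pool 3, Tet1gt/gt E pool 3 and Tet1gt/wt E pool 4) long transcripts read low, with a slope of -0.47 to -0.43 log2 units per doubling of exon length, against -0.18 to 0.27 in the other 20. In all 3 of them Itga6, Itgav, Itgb1 and Lamc1 lay below every other library of the same tissue, and Lama5 and Hspg2 above. These levels did not follow length, since Lama5 and Hspg2 are the longest of the list, at 11388 and 14217 bases of exon. The genes that lay below have 3815 to 7622 bases, and the cause of their low levels was not tested. Calls with and without these libraries are given at the end of the tissue comparison.

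The sequences before the start sites of 3 of these genes are shown because they carry the main contrasts: Nid1 and Dag1 were higher in ExE, and Itga3 had the smallest genotype p of the list. Each is the 250 bases before a RefSeq start on GRCm38.p6, 5′ to 3′ on the gene's strand, with CG, the dinucleotide whose cytosine carries the methyl group that TET enzymes oxidise, in capitals.
Nid1 (chr13:13437352-13437601, plus strand): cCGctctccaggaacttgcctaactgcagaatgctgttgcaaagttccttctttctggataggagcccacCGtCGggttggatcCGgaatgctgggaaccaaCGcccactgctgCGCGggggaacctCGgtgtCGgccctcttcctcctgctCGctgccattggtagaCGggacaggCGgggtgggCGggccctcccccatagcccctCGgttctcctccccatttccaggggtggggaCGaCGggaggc
Dag1 (chr9:108263816-108264065, minus strand): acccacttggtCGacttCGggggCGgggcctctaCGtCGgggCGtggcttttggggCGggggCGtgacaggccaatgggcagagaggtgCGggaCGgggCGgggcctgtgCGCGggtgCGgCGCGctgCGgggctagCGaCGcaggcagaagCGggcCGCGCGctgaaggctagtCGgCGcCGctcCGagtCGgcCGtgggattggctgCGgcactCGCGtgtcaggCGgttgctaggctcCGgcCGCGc
Itga3 (chr11:95076715-95076964, minus strand): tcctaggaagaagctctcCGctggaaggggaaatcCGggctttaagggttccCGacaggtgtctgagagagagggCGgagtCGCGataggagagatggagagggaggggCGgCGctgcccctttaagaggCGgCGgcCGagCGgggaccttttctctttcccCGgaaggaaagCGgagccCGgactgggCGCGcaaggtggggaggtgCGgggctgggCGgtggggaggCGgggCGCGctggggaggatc
The Nid1 window holds 16 CG, the Dag1 window 36 and the Itga3 window 22. Of all 32851 RefSeq windows of this length, 25.4% have at least as many as Nid1, 2.58% as Dag1 and 14.8% as Itga3, and the median is 6. Windows were at hand for 27 of the 36 genes, 31 windows in all with 0 to 36 CG and a median of 11, and 9 genes had none. Dag1 and Itga3 have a second RefSeq window each, with 21 and 5 CG, and the richer window of each gene is shown. These counts describe the letters only, since DNA methylation was not measured in these libraries.

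The first question is how the extra-embryonic and embryonic lineages differ in these genes, asked in each genotype. In wt embryos, ExE carried far more Itga7, Nid1 and Itgb4 than E, and more Dag1, Itga5, Itgav, Itgb5 and Itga3, while Col4a1, Itga6, Nid2 and Lamb1 were lower in ExE. Lama5 and Lamc1, whose products join that of Lamb1 in a laminin heterotrimer of early embryos, did not pass. Of the 36 genes, 31 passed the filter on low counts, and 8 were higher and 7 lower in wt ExE (edgeR quasi-likelihood test, Benjamini-Hochberg adjusted p under 0.05), where 9.28% of all 13595 genes tested were higher and 7.98% lower. Their median log2 fold change was -0.08 and that of all genes -0.01. In bulk tissue, fewer cells of a type and less RNA per cell cannot be told apart.

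**Figure D1:**
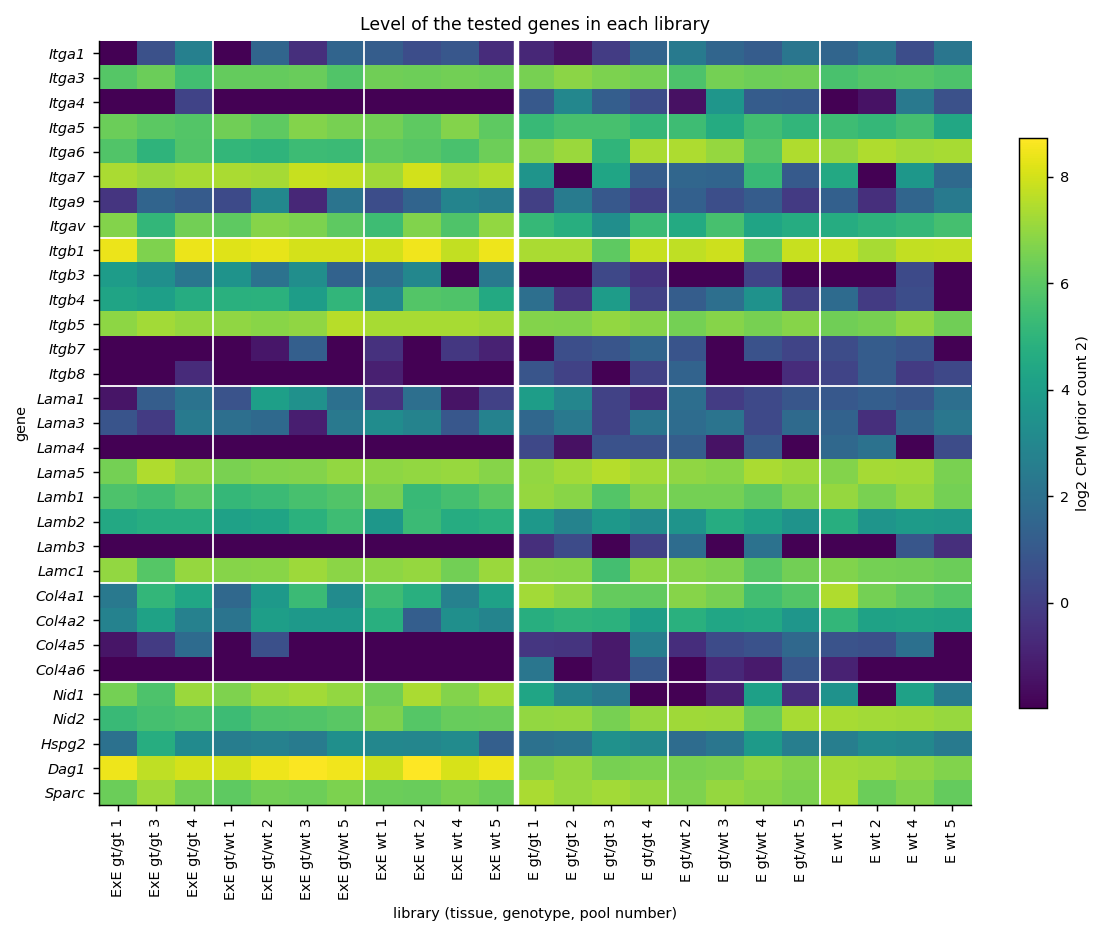
Level of the 31 tested genes (rows, in order of role) in the 23 libraries (columns, ExE left of the thick line and E right of it, gt/gt, gt/wt and wt within each), as log2 CPM with a prior count of 2 in colour. Itga7, Itgb4 and Nid1 are bright in ExE and dark in most E libraries, with Tet1gt/wt E pool 4 among the exceptions.

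Among the integrin alpha genes, Itga7, whose product binds laminin and is best known from muscle, separated the tissues most. It had 167, 138 and 158 CPM in Tet1gt/gt ExE, 163, 156, 224 and 212 CPM in Tet1gt/wt ExE and 145, 254, 151 and 180.2 CPM in wt ExE. In E it had 11.4, 0, 19.9 and 2.04 CPM in Tet1gt/gt, 2.66, 2.53, 37.8 and 1.84 CPM in Tet1gt/wt and 22.1, 0, 12.7 and 2.96 CPM in wt. The lowest ExE library was above the highest E library, which was Tet1gt/wt pool 4. Another 2 E libraries had no count at all. The log2 fold change of ExE over E was 4.23 ± 1.11 (SE) in Tet1gt/gt, 4.12 ± 1.07 in Tet1gt/wt and 4.28 ± 1.08 in wt pools (edgeR adjusted p 0.012, 0.00624 and 0.00848).

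Itga6, another laminin-binding alpha subunit and the usual partner of Itgb1 or Itgb4, ran the other way. It had 56.8, 31.2 and 56.5 CPM in Tet1gt/gt ExE, 33.9, 31.5, 41.4 and 39.7 CPM in Tet1gt/wt ExE and 66.1, 60.6, 50.5 and 81.4 CPM in wt ExE. In E it had 107, 138, 32.8 and 166 CPM in Tet1gt/gt, 168, 131, 60.4 and 172 CPM in Tet1gt/wt and 131, 173, 149 and 159 CPM in wt. The 2 low E values, in Tet1gt/gt pool 3 and Tet1gt/wt pool 4, belong to libraries in which long transcripts read low, and without them ExE and E would not overlap in any genotype. Itga6 itself has 4361 bases of exon and is not among the longest genes of the list, and the cause of its low values there was not tested. The log2 fold change was -1.20 ± 0.39 in Tet1gt/gt, -1.86 ± 0.36 in Tet1gt/wt and -1.24 ± 0.35 in wt pools (edgeR adjusted p 0.0353, 0.000517 and 0.0167), and the wt call was lost without ExE pool 4 (-1.14, edgeR adjusted p 0.054).

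Itga3, the remaining laminin-binding alpha gene of this group, differed between tissues in opposite directions by genotype. It had 59.1, 79.5 and 44.2 CPM in Tet1gt/gt ExE, 73.97, 72.3, 78.5 and 56.1 CPM in Tet1gt/wt ExE and 84.95, 81.5, 85.9 and 82.6 CPM in wt ExE, against 92.3, 115, 97.6 and 90.6 CPM in Tet1gt/gt E, 53.5, 90.4, 81.7 and 83.8 CPM in Tet1gt/wt E and 50.1, 57.3, 60.3 and 52.8 CPM in wt E. All ExE pools were lower than all E pools in Tet1gt/gt embryos and higher than all E pools in wt embryos, and in Tet1gt/wt embryos the tissues overlapped. Its log2 fold change, ExE over E, was -0.70 ± 0.20 in Tet1gt/gt, -0.14 ± 0.18 in Tet1gt/wt and 0.60 ± 0.18 in wt pools (edgeR adjusted p 0.0205, 0.634 and 0.0274). With edgeR, the difference between these effects did not pass its own test for either allele, as given with the genotype comparisons below. The wt call was lost without E pool 1, 2 or 5 or ExE pool 2, 4 or 5 (0.56 to 0.62, edgeR adjusted p 0.0518 to 0.0694), and the Tet1gt/gt call without E pool 2 or ExE pool 1 or 4 (-0.68 to -0.51, edgeR adjusted p 0.0627 to 0.113).

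Per kilobase of exon, the scale on which genes can be set side by side, the laminin-binding alpha subunits in ExE were mostly Itga7. Of the summed level of Itga3, Itga6 and Itga7 per length, Itga7 made up 52.8% to 72.1% over the 11 ExE libraries and 0% to 23.7% over the 12 E libraries. Itga6 made up 12.1% to 23.97% in ExE and 24.4% to 78.4% in E, where the 2 lowest shares are those of the libraries in which long transcripts read low. The plot of families per length shows these shares in each library.

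**Figure D2:**
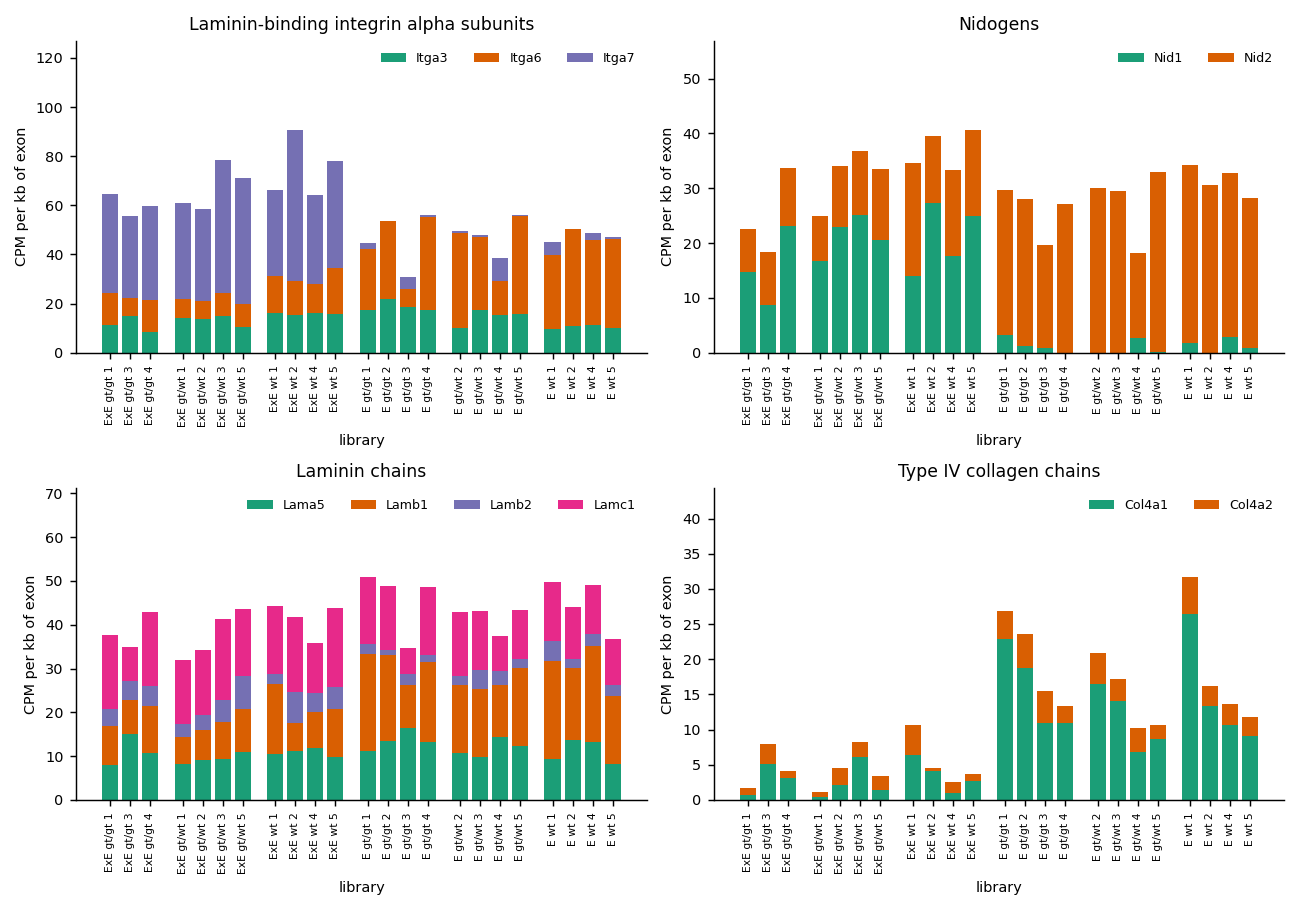
Level per kilobase of exon (CPM per kb, vertical axes from 0) of 4 gene families in each library (bars, ExE left, E right), stacked by gene. In the first panel Itga7 is the largest portion of every ExE bar, and in the second Nid2 is the largest portion of every E bar.

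Itga5 and Itgav, alpha subunits of fibronectin and vitronectin receptors, were higher in wt ExE. Itga5, the main fibronectin receptor alpha subunit, had 80.9, 64.3 and 57.8 CPM in Tet1gt/gt ExE, 85.8, 67.7, 108 and 92.1 CPM in Tet1gt/wt ExE and 88.1, 67.6, 108 and 66.4 CPM in wt ExE, against 37.5, 48.9, 49.4 and 35.3 CPM in Tet1gt/gt E, 41.97, 23.96, 43.99 and 33.2 CPM in Tet1gt/wt E and 42.3, 35.3, 45.8 and 21.3 CPM in wt E. No ExE library overlapped an E library. ExE over E, its log2 fold change was 0.66 ± 0.26 in Tet1gt/gt, which did not pass, 1.30 ± 0.25 in Tet1gt/wt and 1.19 ± 0.25 in wt pools (edgeR adjusted p 0.088, 0.000478 and 0.0022).

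Itgav, the alpha subunit that pairs with Itgb1, Itgb3, Itgb5, Itgb6 or Itgb8, had 107, 33.96 and 86.5 CPM in Tet1gt/gt ExE, 67.7, 111, 97.7 and 67.8 CPM in Tet1gt/wt ExE and 42.6, 104, 54.6 and 127 CPM in wt ExE. In E it had 35.998, 26.5, 9.67 and 39.2 CPM in Tet1gt/gt, 23.8, 48.7, 19.01 and 24.7 CPM in Tet1gt/wt and 24.7, 30.5, 35.4 and 47.6 CPM in wt. The tissues overlapped in wt, where ExE pool 1 was below E pool 5, and in Tet1gt/gt, where ExE pool 3, in which long transcripts read low, fell within the E range. Between tissues the log2 fold change was 1.45 ± 0.45 in Tet1gt/gt, 1.56 ± 0.42 in Tet1gt/wt and 1.24 ± 0.42 in wt pools (edgeR adjusted p 0.0288, 0.00826 and 0.0436), and the wt call was lost without E pool 1, 2 or 4 or ExE pool 2 or 5 (0.96 to 1.26, edgeR adjusted p 0.0833 to 0.157).

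The other alpha genes were low in both tissues. Itga1 and Itga9, receptors of collagen and of tenascin among other ligands, averaged 1.33 ± 0.703 and 4.11 ± 2.69 CPM in wt ExE and 3.12 ± 1.49 and 2.57 ± 1.89 CPM in wt E (SD, n = 4 each), and neither passed the test. Itga4, which pairs with Itgb1, in a further fibronectin receptor, or with Itgb7, had no count in any of the 4 wt or 4 Tet1gt/wt ExE libraries, and 0.106, 12.2, 1.94 and 1.84 CPM in Tet1gt/wt E and 0, 0.110, 4.88 and 1.33 CPM in wt E. It was at least 9.35-fold lower in Tet1gt/wt ExE and at least 3.90-fold lower in wt ExE, taken as the E mean over the highest level that 3 counts stand for in a single ExE library. Single E pools carried both bounds, which were 3.01-fold in Tet1gt/wt without E pool 3 and 1.18-fold in wt without E pool 4. Its wt call was lost without E pool 4 or 5, without any of the 4 ExE pools, and when pool numbers were blocked (edgeR adjusted p 0.0676). Itga2, Itga2b and Itga8 did not pass the filter, with at most 1.18, 1.75 and 2.04 CPM in any library.

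Among the beta genes, Itgb1, the common partner of the alpha subunits above, had the highest mean level per length in each tissue, at 73.8 ± 19.7 CPM per kb in ExE and 47.6 ± 15.4 CPM per kb in E (SD, n = 11 and 12), and was exceeded by Itgb5 in the 3 libraries in which long transcripts read low. It had 102 to 337 CPM in Tet1gt/gt ExE, 264 to 317 CPM in Tet1gt/wt ExE and 212 to 361 CPM in wt ExE, against 67.01 to 225 CPM in Tet1gt/gt E, 71.4 to 238 CPM in Tet1gt/wt E and 161 to 228 CPM in wt E. Its log2 fold change of 0.74 ± 0.39, 0.62 ± 0.36 and 0.53 ± 0.36 in Tet1gt/gt, Tet1gt/wt and wt pools did not pass (edgeR adjusted p 0.2, 0.222 and 0.351). When pool numbers were blocked, it passed in Tet1gt/gt (0.75, edgeR adjusted p 0.0144) and in wt (0.51, edgeR adjusted p 0.0373). It also passed in both without the 3 libraries in which long transcripts read low, at 0.86 in Tet1gt/gt and 0.52 in wt (edgeR adjusted p 0.00333 and 0.0151). None of these 3 is wt, so the wt pools compared were the same.

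Itgb4, which pairs with Itga6 alone and is known from hemidesmosomes, had 19.04, 16.4 and 24.5 CPM in Tet1gt/gt ExE, 27.8, 28.7, 15.7 and 33.5 CPM in Tet1gt/wt ExE and 7.92, 57.9, 54.2 and 22.8 CPM in wt ExE. In E it had 3.59, 0.521, 15.03 and 0.849 CPM in Tet1gt/gt, 2.02, 3.57, 11.1 and 0.788 CPM in Tet1gt/wt and 3.16, 0.659, 1.22 and 0 CPM in wt. Each genotype separated by tissue, although wt ExE pool 1 was lower than Tet1gt/gt E pool 3 and Tet1gt/wt E pool 4. The log2 fold change was 2.03 ± 0.92 in Tet1gt/gt, which did not pass, 2.63 ± 0.89 in Tet1gt/wt and 4.80 ± 1.00 in wt pools (edgeR adjusted p 0.136, 0.0316 and 0.0022). In Tet1gt/gt it passed without E pool 3, and without all 3 libraries in which long transcripts read low (3.67, edgeR adjusted p 0.00587).

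Itgb5, a partner of Itgav, had 119, 153 and 131 CPM in Tet1gt/gt ExE, 122, 112, 123 and 190.5 CPM in Tet1gt/wt ExE and 161, 162, 159.7 and 149 CPM in wt ExE, against 107, 104, 125 and 110.1 CPM in Tet1gt/gt E, 88.9, 110.1, 91.3 and 111 CPM in Tet1gt/wt E and 85.7, 92.5, 123 and 85.1 CPM in wt E. All wt ExE pools were above all wt E pools. Of the 3 genotypes the wt difference alone passed, at 0.71 ± 0.17 (edgeR adjusted p 0.0064), against 0.27 ± 0.18 in Tet1gt/gt and 0.45 ± 0.17 in Tet1gt/wt pools (edgeR adjusted p 0.336 and 0.0545). The Tet1gt/wt difference passed when pool numbers were blocked (edgeR adjusted p 0.0436). The difference between those effects did not pass its own test (edgeR adjusted p 1 for Tet1gt/gt against wt and 1 for Tet1gt/wt against wt).

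Itgb3, another partner of Itgav, was at 15.1, 10.03 and 4.41 CPM in Tet1gt/gt ExE, 11.3, 3.87, 9.82 and 2.34 CPM in Tet1gt/wt ExE and 3.48, 7.75, 0 and 4.87 CPM in wt ExE, and at most 1.08 CPM in any E library. The log2 fold change of 4.75 and 5.09 passed in Tet1gt/gt and Tet1gt/wt pools (edgeR adjusted p 0.0333 and 0.0167) and that of 3.84 in wt pools did not (edgeR adjusted p 0.0702). The Tet1gt/gt call was lost when pool numbers were blocked (edgeR adjusted p 0.131). In wt it passed by DESeq2 (adjusted p 0.0415), without ExE pool 4 or E pool 4, and without the libraries in which long transcripts read low (edgeR adjusted p 0.0436). None of the libraries in which long transcripts read low is wt. Itgb7, a leukocyte subunit, and Itgb8, which with Itgav can release latent TGF-beta, stayed at or under 2.55 CPM in every library. Itgb8 passed in Tet1gt/wt alone, with no count in ExE and 2.44, 0, 0 and 0.394 CPM in E, at least 1.65-fold lower in ExE. That bound rests on E pool 2, without which the E mean of 0.131 CPM is below the 0.430 CPM that 3 counts stand for, and the call was lost without that pool and when pool numbers were blocked (edgeR adjusted p 0.151). Itgb6, an epithelial partner of Itgav, had 0 counts in all 23.

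Of 8 laminin genes tested in wt pools, 2 were lower in ExE and none higher. Lama5, the alpha chain of most embryonic basement membranes, supplied nearly all alpha-chain transcript per length, 81.7% to 98.5% of the 5 alpha genes summed in ExE and 84.3% to 97.2% in E. It had 89.7, 173 and 123 CPM in Tet1gt/gt ExE, 94.8, 103, 108 and 126 CPM in Tet1gt/wt ExE and 120.5, 128, 136 and 110.5 CPM in wt ExE, against 127 to 186 CPM in Tet1gt/gt E, 112 to 164 CPM in Tet1gt/wt E and 93.6 to 156 CPM in wt E. The tissues overlapped in every genotype, and the log2 fold change of -0.27 ± 0.22, -0.32 ± 0.20 and -0.03 ± 0.20 in Tet1gt/gt, Tet1gt/wt and wt pools did not pass (edgeR adjusted p 0.433, 0.255 and 0.939).

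Lamb1, the main beta chain, was lower in ExE. It had 52.9, 44.4 and 62.4 CPM in Tet1gt/gt ExE, 35.4, 39.9, 48.6 and 56.9 CPM in Tet1gt/wt ExE and 92.6, 37.4, 47.4 and 64.9 CPM in wt ExE, against 129, 115, 58.4 and 106 CPM in Tet1gt/gt E, 90.3, 90.6, 69.7 and 104 CPM in Tet1gt/wt E and 131, 95.9, 129 and 90.8 CPM in wt E. In wt the tissues overlapped, since ExE pool 1, the ExE library with most visceral endoderm and most epiblast marker transcript, had more Lamb1 than E pool 5. They also overlapped in Tet1gt/gt, where E pool 3, in which long transcripts read low, was below ExE pool 4. Its log2 fold change, ExE over E, was -0.94 ± 0.29 in Tet1gt/gt, -0.97 ± 0.26 in Tet1gt/wt and -0.88 ± 0.26 in wt pools (edgeR adjusted p 0.0288, 0.00836 and 0.0231), and the wt call was lost without E pool 1 or 4 or ExE pool 2 or 4 (-0.80 to -0.71, edgeR adjusted p 0.061 to 0.0931).

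Lamb2, a beta chain better known from muscle and kidney, had 24.3 ± 2.02 CPM in Tet1gt/gt ExE against 10.4 ± 3.13 CPM in Tet1gt/gt E (SD, n = 3 and 4). That difference passed (log2 fold change 1.23 ± 0.40, edgeR adjusted p 0.0371) but was lost when pool numbers were blocked (edgeR adjusted p 0.117) and without the libraries in which long transcripts read low (edgeR adjusted p 0.0584). Its log2 fold change was 0.72 ± 0.37 in Tet1gt/wt and 0.66 ± 0.37 in wt pools, neither past the threshold. Per length, Lamb1 made up 47.8% to 87.6% of the summed beta chains in ExE and 75.4% to 93.2% in E.

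Lamc1, the gamma chain of nearly all early laminins, had 59.3 to 129 CPM in Tet1gt/gt ExE, 109.7 to 142 CPM in Tet1gt/wt ExE and 85.98 to 138 CPM in wt ExE, against 45.8 to 119.7 CPM in Tet1gt/gt E, 61.4 to 111 CPM in Tet1gt/wt E and 80.9 to 102 CPM in wt E. Its log2 fold change of 0.10 ± 0.29, 0.42 ± 0.27 and 0.40 ± 0.27 in Tet1gt/gt, Tet1gt/wt and wt pools did not pass. The wt difference passed without the 3 libraries in which long transcripts read low (0.39, edgeR adjusted p 0.0383). None of these 3 is wt, so the wt pools compared were the same. Lama1, the alpha chain of the laminin made by endoderm and of Reichert's membrane, was scarce: the highest level in any library was 16.6 CPM in ExE and 15.5 CPM in E, and the medians were 2.05 and 1.67 CPM. Lama3, an epidermal chain, averaged 6.04 ± 3.17 CPM in wt ExE and 2.49 ± 1.70 CPM in wt E (SD, n = 4 each). Neither passed the test in any genotype.

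Lama4 and Lamb3 had counts in E alone. Lama4, a chain of vessel walls, had no count in any of 11 ExE libraries and 1.01, 0.104, 1.38 and 1.36 CPM in Tet1gt/gt E, 2.02, 0.115, 1.76 and 0 CPM in Tet1gt/wt E and 2.89, 3.96, 0 and 1.18 CPM in wt E, which makes it at least 2.26-fold lower in Tet1gt/wt ExE (1.45-fold without E pool 2) and 4.95-fold lower in wt ExE. The Tet1gt/gt difference did not pass (edgeR adjusted p 0.0996). The wt and Tet1gt/wt calls were lost when pool numbers were blocked (edgeR adjusted p 0.0823 and 0.243). The wt call was also lost without E pool 2 or ExE pool 2, 4 or 5. Lamb3, an epidermal beta chain, was likewise at 0 in all ExE libraries and reached 3.87 CPM in E, and it passed in Tet1gt/wt alone, at least 4.16-fold lower in ExE (2.55-fold without E pool 4). DESeq2 did not call it (adjusted p 0.0693), and the call was lost when pool numbers were blocked (edgeR adjusted p 0.278). Lama2, a muscle chain, did not pass the filter, with at most 0.691 CPM in any library of either tissue.

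**Figure D3:**
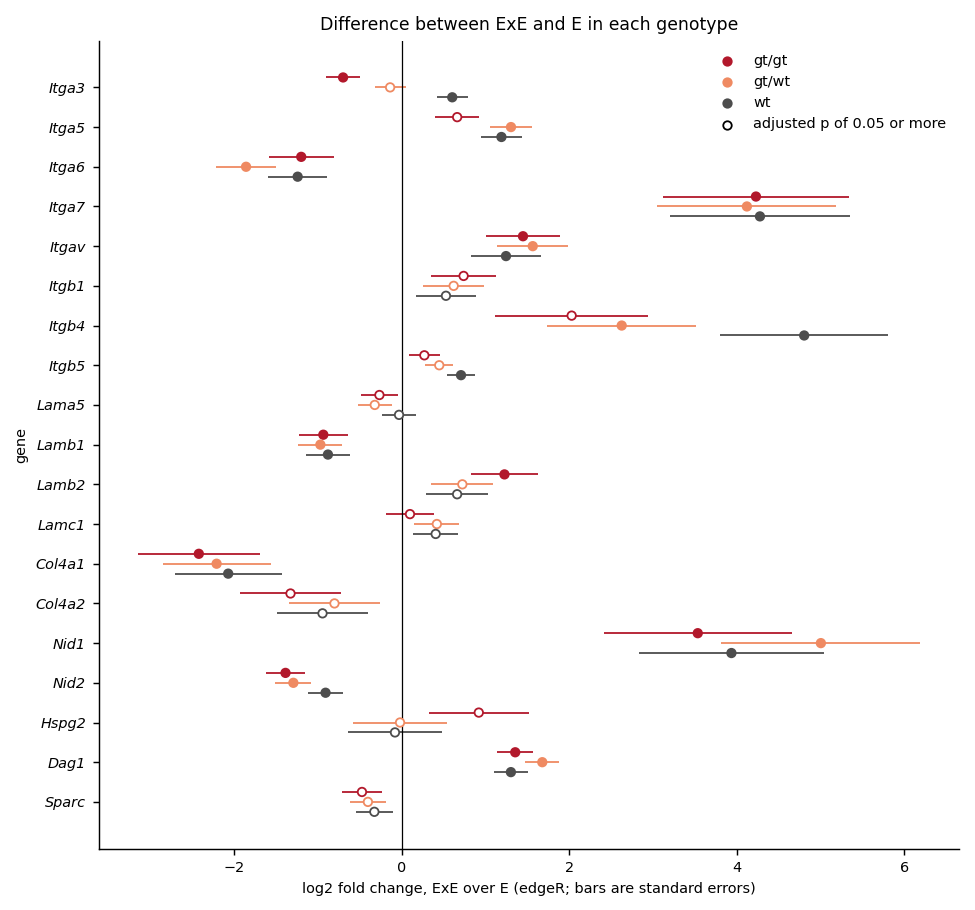
Log2 fold change of ExE over E (horizontal axis, edgeR, bars are standard errors) for the more abundant genes of the list, in gt/gt, gt/wt and wt pools. Filled points passed an adjusted p of 0.05: Itga7, Nid1 and Dag1 lie to the right and Itga6, Lamb1, Col4a1 and Nid2 to the left in all 3 genotypes, and Itga3 changes side.

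Of the 4 type IV collagen genes, Col4a1 and the scarce Col4a5 were lower in wt ExE. Col4a1 had 4.86, 33.96 and 20.5 CPM in Tet1gt/gt ExE, 2.85, 13.9, 40.2 and 8.95 CPM in Tet1gt/wt ExE and 42.1, 27.5, 6.41 and 17.4 CPM in wt ExE, against 151, 124, 72.5 and 71.96 CPM in Tet1gt/gt E, 109, 93.2, 45.2 and 57.4 CPM in Tet1gt/wt E and 175, 88.5, 70.4 and 59.9 CPM in wt E. No ExE library reached the lowest E library, but both tissues spread over several-fold. ExE over E, its log2 fold change was -2.42 ± 0.73 in Tet1gt/gt, -2.21 ± 0.65 in Tet1gt/wt and -2.07 ± 0.64 in wt pools (edgeR adjusted p 0.0253, 0.0136 and 0.0282), and the wt call was lost without E pool 1 or ExE pool 2, 4 or 5 (-2.16 to -1.64, edgeR adjusted p 0.0596 to 0.0956).

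Col4a2, whose product joins that of Col4a1 in the same trimer, had 6.62, 18.005 and 6.42 CPM in Tet1gt/gt ExE, 4.16, 16.2, 13.8 and 13.5 CPM in Tet1gt/wt ExE and 27.5, 2.10, 9.86 and 7.03 CPM in wt ExE, against 26.1, 31.2, 29.4 and 15.95 CPM in Tet1gt/gt E, 28.2, 20.4, 22.3 and 12.3 CPM in Tet1gt/wt E and 34.2, 18.1, 19.3 and 18.05 CPM in wt E. Its log2 fold change of -1.33 ± 0.60, -0.80 ± 0.54 and -0.95 ± 0.54 in Tet1gt/gt, Tet1gt/wt and wt pools did not pass (edgeR adjusted p 0.138, 0.295 and 0.25). When pool numbers were blocked, the wt difference passed (-1.36, edgeR adjusted p 0.0256). The 2 genes lie head to head and their annotated 5′ ends share 22 bases, so reads from that stretch cannot be assigned to either where counting ignored strand. Col4a5 and Col4a6, the minor chains, stayed at or under 5.77 CPM. Col4a5 was at 0 in all 4 wt ExE libraries, at least 3.96-fold lower than in wt E (2.27-fold without E pool 4). That call was lost without any of the ExE pools, without E pool 4, and when pool numbers were blocked (edgeR adjusted p 0.0585).

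The nidogens differed between tissues in opposite directions. Nid1 had 89.2, 52.6 and 140.4 CPM in Tet1gt/gt ExE, 101, 139.6, 153 and 125 CPM in Tet1gt/wt ExE and 85.8, 167, 108 and 152 CPM in wt ExE, against 19.96, 6.98, 4.84 and 0 CPM in Tet1gt/gt E, 0, 0.230, 16.9 and 0.394 CPM in Tet1gt/wt E and 10.8, 0, 17.6 and 5.18 CPM in wt E. Every ExE library was above every E library, and 3 E libraries had no count. Between tissues the log2 fold change was 3.53 ± 1.12 in Tet1gt/gt, 5.004 ± 1.19 in Tet1gt/wt and 3.94 ± 1.11 in wt pools (edgeR adjusted p 0.0333, 0.00318 and 0.0167), and the wt call was lost without E pool 5 (3.77, edgeR adjusted p 0.0547).

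Nid2, the other nidogen, had 39.02, 47.9 and 51.7 CPM in Tet1gt/gt ExE, 40.4, 54.5, 56.7 and 62.7 CPM in Tet1gt/wt ExE and 99.95, 59.1, 76.4 and 76.5 CPM in wt ExE, against 129, 131, 92.1 and 132 CPM in Tet1gt/gt E, 147, 144, 75.1 and 159.97 CPM in Tet1gt/wt E and 158, 149, 146 and 133 CPM in wt E. All ExE pools were lower than all E pools of the same genotype. The log2 fold change was -1.39 ± 0.24 in Tet1gt/gt, -1.29 ± 0.21 in Tet1gt/wt and -0.91 ± 0.21 in wt pools (edgeR adjusted p 0.000617, 0.000126 and 0.00519). Per length, Nid1 made up 40.7% to 69.3% of nidogen transcript in ExE and 0% to 15.3% in E.

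Dag1, which encodes the laminin receptor dystroglycan, had the smallest p of the list in every genotype. It had 349, 209 and 262 CPM in Tet1gt/gt ExE, 256, 351, 405 and 359.5 CPM in Tet1gt/wt ExE and 243, 423, 272 and 346 CPM in wt ExE, against 108, 129, 91.02 and 98.9 CPM in Tet1gt/gt E, 96.05, 99.9, 125 and 108 CPM in Tet1gt/wt E and 151, 144, 122 and 104 CPM in wt E. The lowest ExE library was above the highest E library. Its log2 fold change, ExE over E, was 1.35 ± 0.21 in Tet1gt/gt, 1.68 ± 0.20 in Tet1gt/wt and 1.30 ± 0.20 in wt pools (edgeR adjusted p 0.000298, 5.76e-06 and 0.000171).

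Hspg2, perlecan, was low for its length at 0.586 ± 0.438 CPM per kb in ExE and 0.483 ± 0.230 CPM per kb in E (SD, n = 11 and 12), and Sparc high at 32.7 ± 7.42 CPM per kb in ExE and 43.98 ± 10.9 CPM per kb in E. Sparc had 79.8 to 144 CPM in Tet1gt/gt ExE, 66.2 to 97.8 CPM in Tet1gt/wt ExE and 78.2 to 94.1 CPM in wt ExE, against 131 to 163 CPM in Tet1gt/gt E, 98.8 to 129 CPM in Tet1gt/wt E and 72.3 to 160.1 CPM in wt E. The highest ExE value was in Tet1gt/gt pool 3, the library with most decidua marker transcript. Without that pool Sparc passed as lower in Tet1gt/gt ExE. Neither gene passed the test between tissues in any genotype with all libraries. Sparc also passed in Tet1gt/gt without the 3 libraries in which long transcripts read low (-0.78, edgeR adjusted p 0.0339), and in Tet1gt/wt without the libraries with most markers of the other tissue (-0.41, edgeR adjusted p 0.043).

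In Tet1gt/wt pools, 7 of the 31 genes were higher and 8 lower in ExE, where 12% of all genes were higher and 14.9% lower, and in Tet1gt/gt pools 6 were higher and 5 lower, where 9.12% of all genes were higher and 7.66% lower. The median log2 fold change of the 31 genes was -0.39 in Tet1gt/gt and -0.14 in Tet1gt/wt pools, against 0.00 and -0.05 over all genes. Of the calls, 3 of 11 in Tet1gt/gt (Dag1, Itga7 and Nid2), 10 of 15 in Tet1gt/wt (those 3 with Nid1, Itga4, Itga5, Itga6, Itgav, Lamb1 and Col4a1) and 6 of 15 in wt (those 3 with Itga5, Itgb4 and Itgb5) stood under every alternative in which they were tested. Itga4 did not pass the filter on low counts in the fit of only the 2 Tet1gt/wt groups, so it was not tested there. In Tet1gt/gt, leaving out E pool 2 or ExE pool 1 ended each of the other 8 calls. Leaving out ExE pool 4 ended 6 of them, E pool 4 ended 5, E pool 1 ended 4, ExE pool 3 ended 3 and E pool 3 ended 2. In Tet1gt/wt, Itgb3 was lost without E pool 2 or 5 (edgeR adjusted p 0.0504 and 0.0505), Itgb4 without E pool 2, 3 or 5 or ExE pool 1, 2 or 5 (edgeR adjusted p 0.0532 to 0.0912). The low genes Itgb8, Lama4 and Lamb3 were lost without any one of the 4 ExE pools or without E pool 2, Lama4 and Lamb3 also without E pool 4. The count called in Tet1gt/gt was 3 without E pool 2 or without ExE pool 1, 5 without ExE pool 4, 6 without E pool 4 and 7 without E pool 1, and in wt it was 8 without ExE pool 2 and 9 without ExE pool 4 or 5. Without the 3 libraries in which long transcripts read low, 13 genes passed in Tet1gt/gt, 13 in Tet1gt/wt and 18 in wt. Tet1gt/gt lost Lamb2 and gained Itgb1, Itgb4 and Sparc. Tet1gt/wt lost Lama4 and Lamb3. In wt, Itgb1, Itgb3 and Lamc1 were gained, although none of the 3 libraries is wt. The wt pools compared were the same, and fewer libraries shared the estimate of the spread.

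Marker levels of the other tissue moved with the largest of these differences. In E, the mean log2 CPM of the 9 extra-embryonic ectoderm markers was 4.23 and 4.74 in Tet1gt/gt pools 1 and 3, 5.07 in Tet1gt/wt pool 4, and 4.81 and 4.32 in wt pools 1 and 4, and 1.06 to 3.08 in the other 7. Those 5 libraries held the 5 highest E levels of Itga7, 11.4 to 37.8 CPM, against 0 to 2.96 CPM in the other 7. For Nid1, 4 of them held the 4 highest E levels, and Tet1gt/gt E pool 3 was the exception with 4.84 CPM. For Itgb4 the 2 highest E levels were in Tet1gt/gt pool 3 and Tet1gt/wt pool 4. An alternative chosen after the data were seen left out these 5 and the 4 ExE libraries with a mean log2 CPM of epiblast markers over 7. It kept pools 2 and 5 of each wt tissue. The wt log2 fold change was then 7.36 for Itga7, 6.07 for Nid1 and 6.73 for Itgb4. The wt E pools left out, 1 and 4, had the higher wt E levels of all 3 genes, so larger values follow from the choice of libraries. They are no further support for a tissue difference. Of the wt E pools kept, pool 2 had no count of Itga7 or Nid1, and pool 5 none of Itgb4. Itga3 (0.57), Col4a1 (-1.72) and the low genes Itga4, Lama4 and Col4a5 no longer passed. The same fit added 5 wt calls, Itgb1 (0.90), Itgb3, Lamb2 (1.39), Lamc1 (0.66) and Col4a2 (-2.01). Their edgeR adjusted p was 0.00342 for Itgb3 and 0.000768 to 0.0491 for the others. Itgb3 had no count in either wt E pool kept, so its log2 fold change of 8.70 depends on the prior count and is no measured fold. In Tet1gt/wt it lost Lama4 and Lamb3 and added Itgb1 and Sparc. In Tet1gt/gt it left 1 ExE library, pool 1, so its calls are not given.

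**Figure D4:**
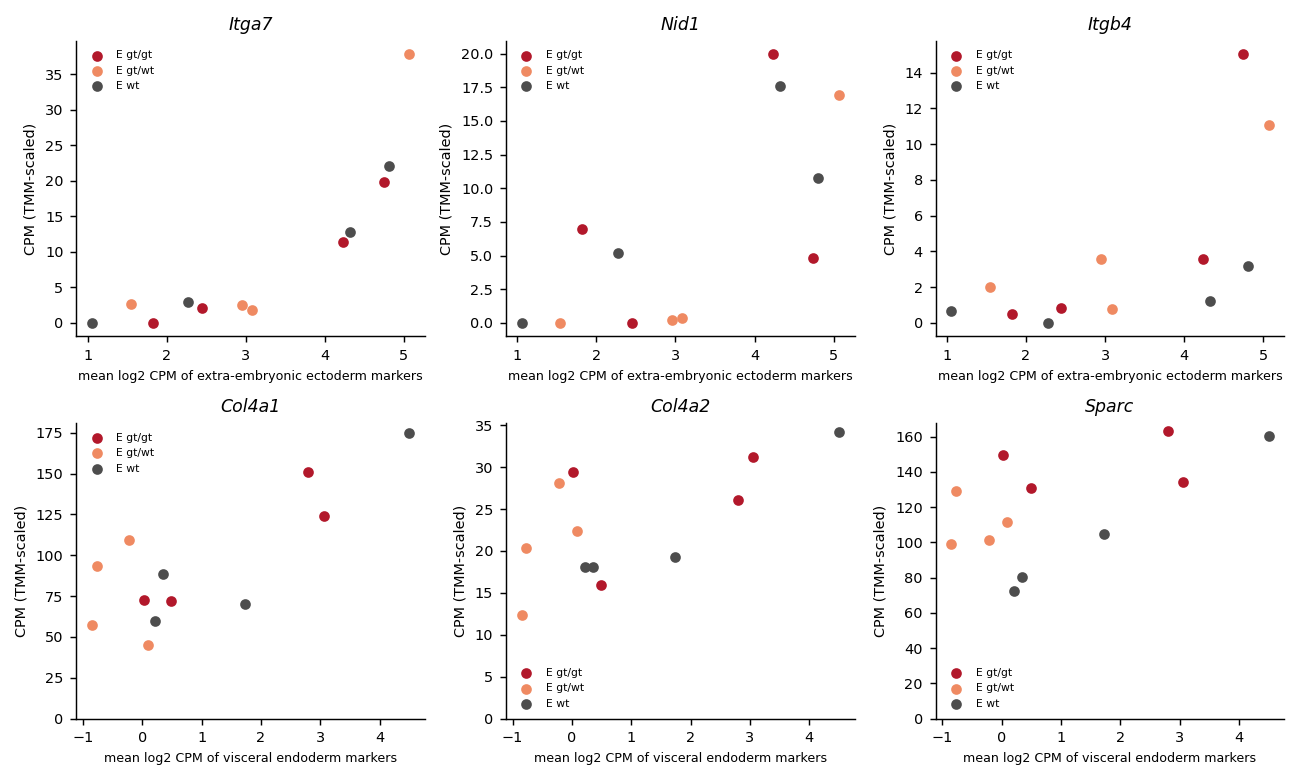
Level of 6 genes (CPM, vertical axes) in the 12 E libraries against the mean log2 CPM of extra-embryonic ectoderm markers (upper row) or of visceral endoderm markers (lower row). Itga7 is above 11 CPM only in the 5 libraries with a marker level over 4, and Col4a1 is highest in wt pool 1, which has the highest visceral endoderm level.

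Visceral endoderm, which lies on this basement membrane, was asked about within each tissue by a slope on the mean log2 CPM of its 26 markers, with genotype in the model. In E none of the 27 genes tested passed (0.0887% of 12405 genes did), and 3 had an unadjusted p under 0.05 (2.85% of all genes): Col4a1 with a slope of 0.30 ± 0.09 log2 units per log2 unit of marker level (p 0.00421), Sparc with 0.16 ± 0.06 (p 0.0144) and Col4a2 with 0.19 ± 0.09 (p 0.0437), all with an edgeR adjusted p of 1. The wt E pool 1, at a marker level of 4.50, had the highest E level of Col4a1 (175 CPM) and of Col4a2 (34.2 CPM), and Tet1gt/gt pools 1 and 2, at 2.80 and 3.06, came next for Col4a1 with 151 and 124 CPM. Without the libraries in which long transcripts read low the slope of Col4a1 was 0.32 and passed (edgeR adjusted p 0.0432).

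In ExE none of the 24 genes tested passed for that slope (0% of 12355 genes did), and 6 had an unadjusted p under 0.05 (6.42% of all genes). Col4a2 had a slope of 0.72 ± 0.17 (p 0.000915, edgeR adjusted p 0.378), and DESeq2 called it (adjusted p 0.0168). The other 5, Itgav, Dag1, Itgb4, Nid1 and Itga7, had slopes of -0.48 to -0.16. The ExE library with the highest level, wt pool 1 at 2.99, had the highest ExE values of Col4a1, Col4a2, Lamb1 and Nid2 and the lowest of Itgb4. That pool also had the highest epiblast marker level of the ExE libraries, at a mean log2 CPM of 7.51. In ExE, 10 of 10 epiblast markers had a positive slope, 5 with an unadjusted p under 0.05. Of 9 extra-embryonic ectoderm markers, 0 had a positive slope and 4 had an unadjusted p under 0.05. The part of each tissue in these values was not tested.

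The second question is what the Tet1 alleles do to these genes in each tissue, and no member passed in any of the 4 comparisons. In E, 27 members were tested and 0 called in Tet1gt/gt against wt (0.0161% of 12405 genes) and in Tet1gt/wt against wt (0% of genes), and 1 member in each had an unadjusted p under 0.05, where 4.19% and 2.4% of all genes did. In ExE, 24 members were tested and 0 called in either (0% and 0% of 12355 genes), and 2 members in Tet1gt/gt and 3 in Tet1gt/wt had an unadjusted p under 0.05, where 7.57% and 4.13% of all genes did. The median log2 fold change of the members against wt was 0.10 in Tet1gt/gt E, -0.11 in Tet1gt/wt E, -0.22 in Tet1gt/gt ExE and 0.03 in Tet1gt/wt ExE, against 0.01, 0.00, -0.02 and 0.01 over all genes. By DESeq2, 1 member was called in Tet1gt/gt against wt in E and 0 in the other 3.

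Itga3 was the member of smallest p in E for both alleles. Its E level was 98.9 ± 11.2 CPM in Tet1gt/gt, 77.4 ± 16.3 CPM in Tet1gt/wt and 55.1 ± 4.58 CPM in wt pools (SD, n = 4 each). The 4 Tet1gt/gt pools were all above the 4 wt pools, and 3 of the 4 Tet1gt/wt pools were. The log2 fold change against wt was 0.85 ± 0.19 in Tet1gt/gt (p 0.000433, edgeR adjusted p 0.488) and 0.49 ± 0.19 in Tet1gt/wt (p 0.0195, edgeR adjusted p 0.982). DESeq2 called the Tet1gt/gt difference (adjusted p 0.0194), and over all 15 alternatives it ran from 0.76 to 0.91 with an adjusted p of 0.0194 to 1.

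In ExE, Itga3 averaged 60.95 ± 17.7 CPM in Tet1gt/gt, 70.2 ± 9.74 CPM in Tet1gt/wt and 83.7 ± 2.03 CPM in wt pools (SD, n = 3, 4 and 4). All Tet1gt/gt and Tet1gt/wt pools were below all wt pools, whose values lay within 5 CPM of each other. Against wt, its log2 fold change was -0.48 ± 0.22 in Tet1gt/gt (p 0.0432, edgeR adjusted p 0.628) and -0.23 ± 0.20 in Tet1gt/wt (p 0.26, edgeR adjusted p 1). The difference between tissues of the Tet1gt/gt effect, ExE minus E, was -1.30 ± 0.27 (p 9.27e-05, edgeR adjusted p 0.63), and that of the Tet1gt/wt effect -0.74 ± 0.26 (p 0.00935, edgeR adjusted p 0.674). Of the 31 members tested for such a difference, 0 passed for either allele (0% and 0% of 13595 genes), and 3 for Tet1gt/gt and 1 for Tet1gt/wt had an unadjusted p under 0.05, where 3.06% and 5.27% of all genes did. DESeq2 called the Tet1gt/gt difference of Itga3 (adjusted p 0.0185), and over the 21 alternatives it ran from -1.55 to -1.11 with an adjusted p of 0.0185 to 1.

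**Figure D5:**
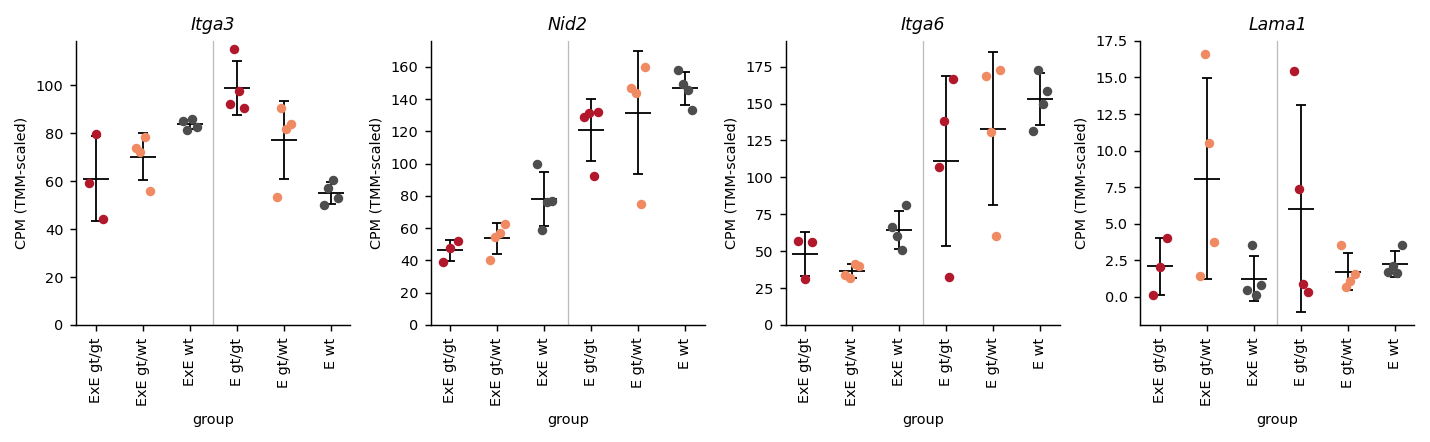
Level (CPM, TMM-scaled) of Itga3, Nid2, Itga6 and Lama1 in each library (points), with mean and SD (lines), for gt/gt, gt/wt and wt pools of ExE (left of the grey line) and E (right). Itga3 is on average highest in Tet1gt/gt in E and in wt in ExE, and Nid2 is on average lowest in Tet1gt/gt ExE.

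The other members of smallest p did not pass and are given by their values. Nid2 in ExE averaged 46.2 ± 6.52 CPM in Tet1gt/gt, 53.6 ± 9.44 CPM in Tet1gt/wt and 77.99 ± 16.8 CPM in wt pools (SD, n = 3, 4 and 4), with every Tet1gt/gt pool below every wt pool. Its log2 fold change was -0.77 ± 0.23 in Tet1gt/gt (p 0.00544, edgeR adjusted p 0.513) and -0.52 ± 0.21 in Tet1gt/wt (p 0.028, edgeR adjusted p 1). ExE wt pool 1, with most visceral endoderm and most epiblast marker transcript of the ExE libraries, had the highest of these values. The part of those tissues in the difference was not tested.

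Itga6 in ExE was at 36.6 ± 4.69 CPM in Tet1gt/wt and 64.6 ± 12.9 CPM in wt pools (SD, n = 4 each), which did not overlap (log2 fold change -0.80 ± 0.24, p 0.00559, edgeR adjusted p 0.959). Epiblast markers, none of which passed, lay on the same side in that comparison: 10 of 10 had a negative log2 fold change, median -1.24, 5 of them with an unadjusted p under 0.05. Their mean log2 CPM was 4.96 to 6.17 in Tet1gt/wt ExE and 5.02 to 7.51 in wt ExE. In Tet1gt/gt against wt ExE, the comparison of Nid2 above, 7 of the 10 had a negative one, median -0.10. Without the libraries with most markers of the other tissue, which left wt ExE pools 2 and 5, the change was -0.95 for Itga6 in Tet1gt/wt. For Nid2 in Tet1gt/gt it was -0.80, with ExE pool 1 as the only Tet1gt/gt library left. Lama1 had 1.42, 16.6, 10.5 and 3.73 CPM in Tet1gt/wt ExE and 0.480, 3.54, 0.119 and 0.811 CPM in wt ExE, which overlapped (log2 fold change 2.69 ± 1.06, p 0.0241, edgeR adjusted p 1). In Tet1gt/gt E, Itga1 had 0.336, 0.104, 0.691 and 2.55 CPM, against 2.63, 4.17, 1.22 and 4.44 CPM in wt E (log2 fold change -1.78 ± 0.85, p 0.0546, edgeR adjusted p 0.961). Dag1 had 96.05, 99.9, 125 and 108 CPM in Tet1gt/wt E and 151, 144, 122 and 104 CPM in wt E (log2 fold change -0.28 ± 0.18, p 0.134, edgeR adjusted p 0.982).

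Further genes of matrix and adhesion show what surrounds the list in wt embryos, where 9.28% of all genes tested were higher in ExE and 7.98% lower. Of 24 other matrix genes tested, 2 were higher in ExE, Smoc1 (1.31 log2, edgeR adjusted p 0.0121) and Tinagl1 (4.03, 0.0254), both secreted matrix glycoprotein genes, and 3 lower, Fn1, fibronectin itself (-1.90, 0.00199), Col18a1 (-1.66, 0.0133) and Fbln1 (-0.89, 0.0284). Those shares, 8.33% higher and 12.5% lower, are near those of all genes. The fibronectin gene was lower in the tissue in which its receptor gene Itga5 was higher. Of 17 other adhesion receptors tested, 2 were higher, the syndecan Sdc4 (2.50, edgeR adjusted p 7.88e-05) and the tetraspanin Cd9 (2.13, 0.000125), and 5 lower, led by the tetraspanin Cd81 (-1.12, 0.000415), the syndecan Sdc1 (-0.64, 0.0136) and the glypican Gpc6 (-1.54, 0.016). Of these receptors, 11.8% were higher and 29.4% lower.

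Of 23 genes for proteins that join integrins to actin or signal from them, 7 were higher in wt ExE, led by Pxn, paxillin (1.96, edgeR adjusted p 9.62e-05), Fermt2, kindlin (1.48, 0.000477) and Tln1, talin (0.97, 0.0018). Another 4 were lower, led by Flna, filamin (-1.78, 0.000138), the second talin gene Tln2 (-1.44, 0.01) and Bcar1 (-0.65, 0.0273). The shares were 30.4% higher and 17.4% lower. Of 33 genes that process or remodel matrix, 9 were higher, led by the gelatinase Mmp9 (6.66, edgeR adjusted p 0.0004), the procollagen proteinase Bmp1 (3.14, 0.000772) and the collagen lysyl hydroxylase Plod1 (1.61, 0.00087). The 8 lower ones were led by the collagen chaperone Serpinh1 (-1.89, edgeR adjusted p 0.00196), the peroxidase Pxdn, which cross-links type IV collagen (-1.35, 0.00761), and Mmp2 (-2.48, 0.01). Of these, 27.3% were higher and 24.2% lower. Serpinh1 and Pxdn thus lay on the same side as Col4a1, and Bmp1 and Plod1, which also act on collagen, on the other.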

How the data were processed

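RNA of 23 embryo pools was read as amplified cDNA (SMARTer Ultra Low Input kit, single reads on a NextSeq), per the labels' protocols. The submitters' processing notes name cutadapt 1.7.1, FastX 0.0.13, ShortRead 1.16.3, TopHat2 2.0.12 and mm10 (GRCm38), while no source used here gives the counting program or its strand setting. Values are raw counts per gene as the authors deposited them. Dates had replaced the symbols of 27 lines, and 0 lines lacked a name. All 33 pairs of libraries of a group differed beyond counting noise (chi-square per degree of freedom 12.3 to 118), so each pool was 1 replicate and p-values measure the spread between pools.

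Counts were tested with edgeR 4.0.16 (R 4.3.3; filterByExpr with minimum count 10 and total 15, TMM, glmQLFit and glmQLFTest, two-sided, Benjamini-Hochberg over all genes tested, threshold 0.05). For tissue comparisons, and for differences between them, all 23 libraries entered 1 model, and for genotype comparisons and slopes each tissue had its own. Log2 fold changes use a prior count of 0.125. The standard errors given with edgeR changes and slopes are approximate: each is the absolute value of the change over the square root of its quasi-likelihood F. Exon lengths and positions are from GENCODE M21 on GRCm38, promoter windows from RefSeq. The steps were tested on simulated data. Alternatives were DESeq2 1.42.0, RLE scaling, no filter, other sets of libraries, the pool number as a block and leaving out each pool. The labels say that pools of both tissues share litters and numbers in 3 of 4 cases. Same-numbered pools correlated at 0.475 to 0.814 in Tet1gt/gt, -0.173 to 0.227 in Tet1gt/wt and -0.101 to 0.249 in wt.

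The genes and lists were chosen with earlier results of these data known. All 36 genes are described, and values in every library are given for genes past the threshold between wt tissues whose log2 CPM averages 2 or more, and for the 2 of smallest p per genotype comparison; of the other lists, the 3 of smallest p per direction are named.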

Additional observations from a re-analysis of the deposited data

Results flagged for a closer look

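In 95 groups of 4 libraries with a mean of at least 5 CPM, 7 held a library that stood apart from the other 3 by Dixon's criterion, where chance flags about 1 in 20. Itga7 was at 37.8 CPM in Tet1gt/wt E pool 4, against 1.84 to 2.66 CPM in the other 3, and that library had the highest extra-embryonic ectoderm marker level of the E libraries. Col4a2 was at 34.2 CPM in wt E pool 1, against 18.05 to 19.3 CPM, and that library had the highest visceral endoderm marker level. In Tet1gt/gt E pool 3, where long transcripts read low, Lamc1 was at 45.8 CPM, against 111 to 119.7 CPM, and Nid2 at 92.1 CPM, against 129 to 132 CPM. Itgb5 was at 190.5 CPM in Tet1gt/wt ExE pool 5, against 112 to 123 CPM, and at 149 CPM in wt ExE pool 5, against 159.7 to 162 CPM. Sparc was at 94.1 CPM in wt ExE pool 4, against 78.2 to 80.6 CPM.

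Itga3 stood out because every Tet1gt/gt pool was below every wt pool in ExE and above every wt pool in E. The difference of the 2 log2 changes, ExE minus E, was -1.30, which had an adjusted p of 0.63 with edgeR and of 0.0185 with DESeq2.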

How the results depend on the processing

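Among the counts of members called and the members followed one by one, none changed direction under any alternative. The count of members called moved by over 1.5 times in 13 cases and stayed within that in 168. The 168 include every fit in which a count of 0 stayed at 0, as in most fits of genotype, slopes and differences between tissues. They are therefore no measure of how firm the calls between tissues are. With DESeq2, 1 member was called for Tet1gt/gt against wt in E and 1 for its difference between tissues (Itga3 in both), and 1 for the visceral endoderm slope in ExE (Col4a2). A fit of only the 2 groups compared called 5 members between tissues in Tet1gt/gt, and 1 (Col4a1) was called for the visceral endoderm slope in E without the 3 libraries in which long transcripts read low. On leaving out 1 pool, the count between tissues ran from 3 to 10 in Tet1gt/gt and 8 to 14 in wt, and for these fits fewer samples are part of the alternative. With the pool number as a block, between-tissue counts were 10 in Tet1gt/gt, 13 in Tet1gt/wt and 14 in wt, the 4 genotype comparisons, both differences and both slopes had 0, and Itgb8 and Lamb3 were among the calls lost in Tet1gt/wt. The pool number is no stated pairing between genotypes. Same-numbered pools of Tet1gt/wt and wt E correlated at 0.196 to 0.435, and the other genotype pairs had a pool under 0.1. For genes at 0 in ExE, depth gives a bound only. The causes of the other changes were not tested.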
